A study of Mus musculus with 4 samples.

Results

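The genes described here encode the proteins of the cytosolic ribosome. They were chosen by name, as the genes called Rpl or Rps with a number (and a final a, x, y or l), together with Rplp0, Rplp1, Rplp2 and Rpsa. The rule found 82 of the 23235 gene symbols in the files, 50 named for the large subunit and 32 for the small subunit, on 19 chromosomes. No measured value entered the choice.

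RNA was sequenced from the 2 cm of colon that follow the caecum in mice aged 6 weeks, in 4 libraries. The 2 control libraries came from Nkx2.2flox/+ mice, which carry 1 floxed and 1 wild-type allele of Nkx2-2, a homeodomain transcription factor, and their labels list no Cre. The 2 mutant libraries came from Nkx2.2flox/flox; Villin-Cre/+ mice, in which the Villin promoter drives the Cre recombinase in intestinal epithelium, so the muscle, stroma and immune cells of the same tissue are not its target. All 4 libraries share the strain label mixed. Whether libraries with the same genotype are from different mice is not labelled, and p-values here reflect only library-to-library spread, which may be technical. In bulk tissue, fewer cells of a type and less RNA per cell cannot be told apart.

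Each ribosome is built from a large and a small subunit, and each subunit from ribosomal RNA and one copy of most of its proteins. The small subunit decodes the messenger RNA, and the large subunit joins the amino acids and carries the stalk that recruits translation factors. In mammals the messenger RNAs of these proteins begin with a run of pyrimidines, the terminal oligopyrimidine tract, through which mTORC1 signalling governs their translation. The mouse genome also carries many intronless copies of these genes, most of them processed pseudogenes, and reads from a gene and from such a copy can be hard to tell apart.

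Nkx2-2, the targeted gene, was listed at 0.724 FPKM in control 1 and 0.609 FPKM in control 2, against 0.125 FPKM in mutant 1 and 0.351 FPKM in mutant 2. FPKM are fragment numbers corrected for transcript length and for the total mapped in each library. Both mutants lay below both controls, but the mean was under the 0.5 FPKM needed for testing. By isoform, the control values lay in a transcript of 2049 bases, which was at about 0 FPKM in both mutants. The mutant values lay in a transcript of 1354 bases, which was at about 0 FPKM in both controls. This split rests on very low values. With control 1 set to 1, the depth of control 2 was 1.13 and that of mutant 2 was 1.03, but mutant 1 had only 0.464, so its values rest on fewer fragments. Summed markers of colon epithelium reached 19213, 27324, 21668 and 21248 FPKM, where, as in all lists of values below, both controls come first (1, then 2) and both mutants follow. Summed B and plasma cell markers were at 1342, 542, 625 and 520 FPKM, so control 1 stood apart from the other libraries. Summed T and NK cell markers were at 117, 78.2, 66.4 and 57.4 FPKM, both mutants below both controls. All 8 of these markers had a log2 change below 0 (median -0.72), and 5 of them had an unadjusted p under 0.05, but 0 passed the adjusted threshold of limma. Of all tested genes, 82.6% were below 0 (median -0.17), and 4.12% were lower in mutants at an unadjusted p under 0.05 by limma. The part of these cells in the values of the ribosomal protein genes was not tested.

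Sequences are shown first for the exon junctions of these genes, because much of the evidence on single members turns on whether their reads are unique. Each line is a coding stretch of 30 bases, from RNA 5′ to 3′, centred on a junction. The letters of the upstream exon are in lower case and those of the downstream exon in capitals. They were read from the mm9 assembly with GENCODE vM1 exons. A contiguous genomic match to such a stretch is a place where the same letters stand without that intron. The stretch shown for a gene is the one with the fewest matches among those considered that had any. Other junctions of the gene can have more.
Rpl8, exons 2 and 3: aaaggcatcgtaaagGACATCATTCATGAC
Rpl3, exons 7 and 8: agcatcaacccactgGGTGGCTTTGTGCAT
Rpl26, exons 2 and 3: gatgacgaagttcagGTTGTTCGCGGACAC
Rps27, exons 2 and 3: acgtgaaatgcccagGATGCTATAAAATCA
Rpl34, exons 3 and 4: ggcagacttcgagggGTTCGTGCTGTGCGG
Rpl38, exons 4 and 5: agtccctacccccggGTTTGGCAGTGAAGG
Rps18, exons 2 and 3: atcactgccattaagGGCGTGGGGCGGAGA

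The Rpl8 stretch, like the stretches at all 4 coding junctions tried in that gene, had 0 contiguous matches in the genome. The Rpl3 stretch matched 1 place, at chrX:12780634-12780663 on the plus strand, inside the pseudogene Rpl3-ps1, while Rpl3 itself lies at chr15:79908211-79913836. In Rpl3, 8 of 8 coding junctions had such a match. The Rpl26 stretch matched 3 places, one of them in the pseudogene Gm11826 at chr4:13410158-13410187 on the minus strand.

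Rps27 (chr3:90016589-90017570) had 2 matches, at chr9:114891696-114891725 in the intronless gene model Gm9846 and at chr15:99537115-99537144. Rpl34 (chr3:130429749-130433226) had 2, of which chr6:71074754-71074783 lies in Rpl34-ps1. The Rpl38 stretch (gene at chr11:114529857-114533645) had 3 matches, in Rpl38-ps1 on chromosome 4 and in Gm8129 and Rpl38-ps2 on chromosome 6. Rps18 (chr17:34088944-34092586) had 3, on chromosomes 8 and 13.

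The same was measured over whole transcripts, with every stretch of 50 bases looked up in the genome. A transcript was available for 81 members, all but Rpl41. In the median member 60.9% of the stretches were found again outside the gene itself, against a median of 0% over 13344 tested genes. At least 50% were found again in 50 of the 81 members, a share of 61.7%, against 3.44% of tested genes. Of 80 members with exon junctions, 76 had at least 1 junction stretch unbroken elsewhere in the genome, against 10.2% of tested genes. The share ranged from 0% to 99.6%, the latter in Rps27, and 8 members lay under 10%.

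The ribosomal protein genes were among the most abundant messages of the colon. Their summed level was 32579, 29210, 27166 and 28847 FPKM, which is 5.25%, 4.84%, 5.03% and 4.89% of all FPKM in the library. Per length, the median member reached 247, 220, 201 and 212 FPKM. Of the 82 members, 79 had a mean of at least 0.5 FPKM and were tested.

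**Figure D1:**
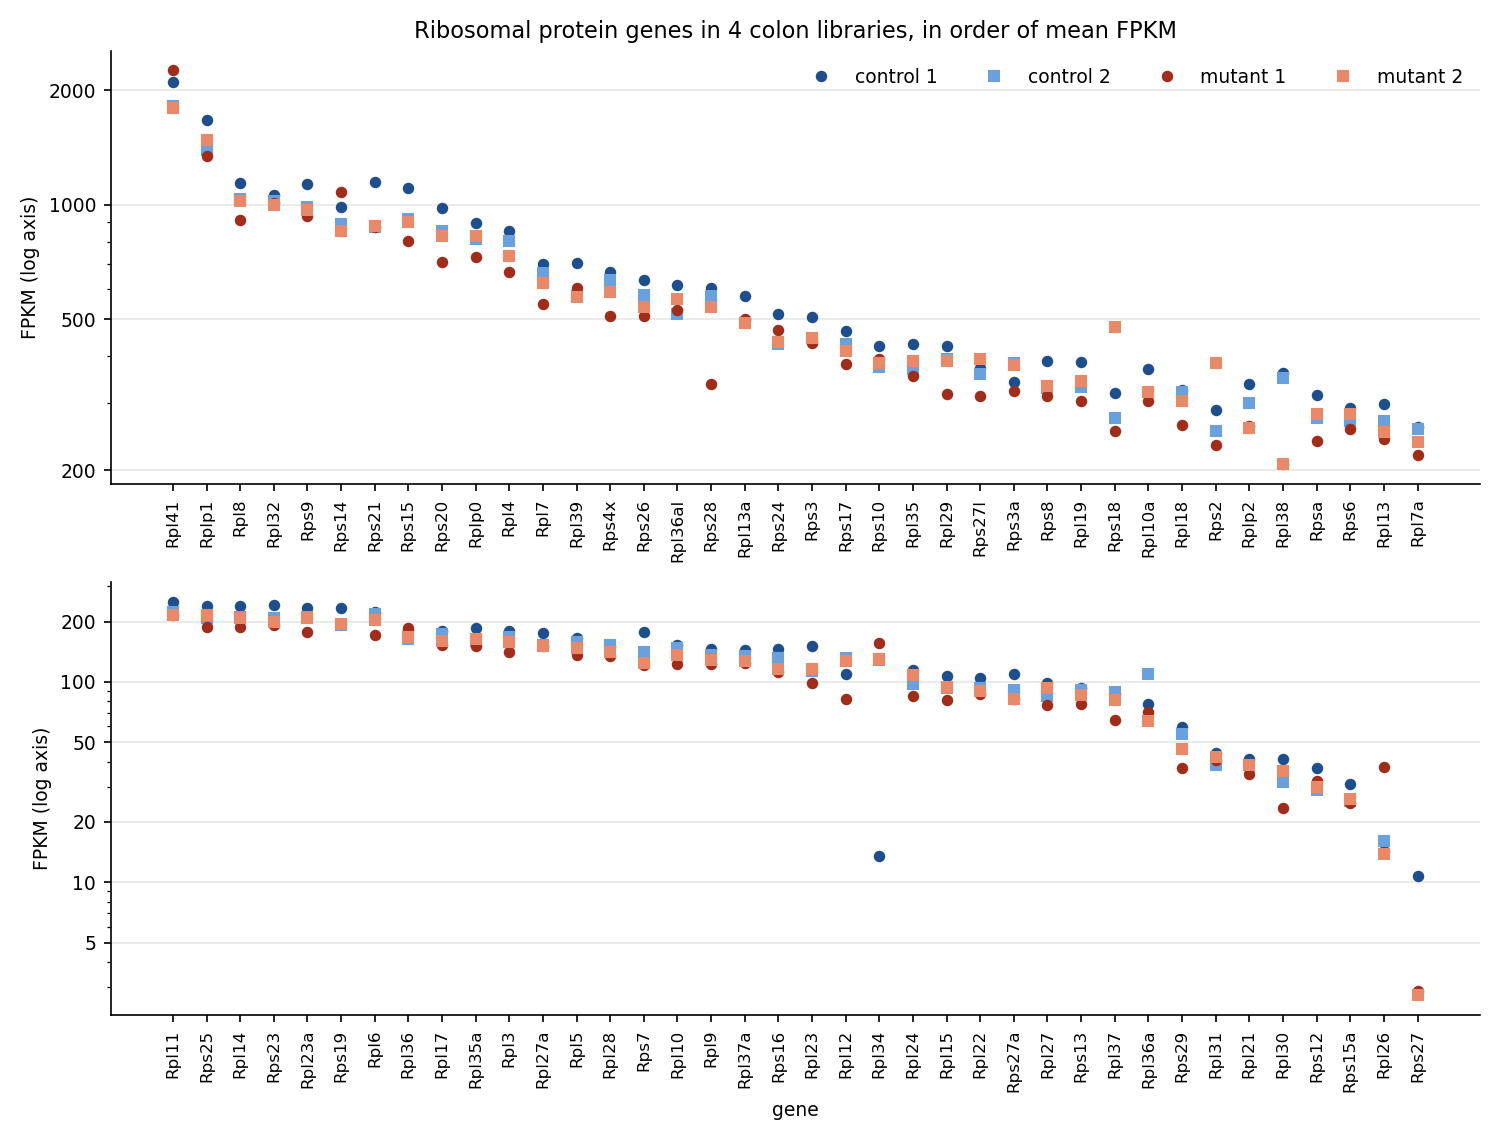
FPKM of 76 of the 79 tested ribosomal protein genes on log axes, in order of the mean over 4 libraries and continued in the lower panel. Blue points are the controls and red points the mutants; most genes show 4 points close together, from Rpl41 at 1801 to 2257 FPKM to Rps27 near 3 FPKM in 3 libraries and 10.7 FPKM in control 1.

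Rpl41, a peptide of the large subunit that is almost wholly basic, had the highest level, at 2106, 1819, 2257 and 1801 FPKM. Rplp1, an acidic stalk protein, followed at 1673, 1389, 1341 and 1479 FPKM. In both genes the groups overlapped.

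Also among the 10 highest genes were Rpl8, Rpl32, Rps9, Rps14, Rps21 and Rps15, whose levels lay between 804 and 1145 FPKM in every library. Their ranges over the libraries overlapped, so their order is not resolved. Rpl8, near the catalytic centre of the large subunit, was at 1138, 1036, 909 and 1022 FPKM, and Rps14 was at 987, 892, 1080 and 855 FPKM. Proteins that enter the ribosome in equal number were thus listed over a wide range of FPKM, down to Rps15a at 31.0, 25.3, 25 and 26.1 FPKM and Rps27 at 10.7, 2.75, 2.89 and 2.73 FPKM. FPKM are corrected for length, and the annotated Rps15a transcript has 5134 bases, against a median of 706.5 bases over members.

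Mutants and controls were compared with limma on log2(FPKM + 0.5), a scale that understates the change of low genes, with Benjamini-Hochberg adjustment over all 13997 genes tested. None of the 79 members passed an adjusted p of 0.05, where 0.0643% of all tested genes did. The smallest adjusted p of limma among them was 0.447. At an unadjusted p under 0.05, 3 members were lower in mutants (Rpl38 and Rps29 among them), where 4.12% of all tested genes were, and 0 were higher, where 0.700% of all were. In the authors' deposited table of DESeq results, 0 of the 81 members with a p-value passed an adjusted p of 0.05, where 0.0384% of its genes did. Its unadjusted p was under 0.05 for 2 of these 81 members, where 90 of its 20834 genes with a p-value were under that limit. Rps16, named after its value was seen, is among the 2 members.

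The changes of the members centred on those of all genes. Their median log2 change was -0.17, and that of all tested genes was also -0.17. After rescaling of the libraries by median ratios the medians were 0.016 and 0.0056. Of the 79 members, 71 had a log2 change below 0, where 82.6% of all genes did, and after that rescaling 32 did. Against the median of all genes, 40 members lay below and 39 above.

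The spread between members was small. The middle 50% of their changes ran from -0.22 to -0.11. Within 0.25 of the all-gene median lay 69 of 79 members (87.3%), against 78.0% of all genes and 88% of the 1930 genes averaging 50 FPKM or more. Both mutants lay below both controls in 42 members, where 35.1% of all genes showed this. Both mutants lay above both controls in 1 tested member, Rpl34, where 3.39% of all genes did. In 36 members the groups overlapped.

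The summed FPKM of the members averaged 30894 ± 2383 (SD, n = 2) in controls and 28006 ± 1189 (SD, n = 2) in mutants, a ratio of 0.907. Both mutant sums lay below both control sums, but the gap between control 2 and mutant 2 was small. With 2 libraries against 2 an exact two-sided permutation test cannot go below 0.333. After the rescaling by median ratios the ratio was 1.03.

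**Figure D2:**
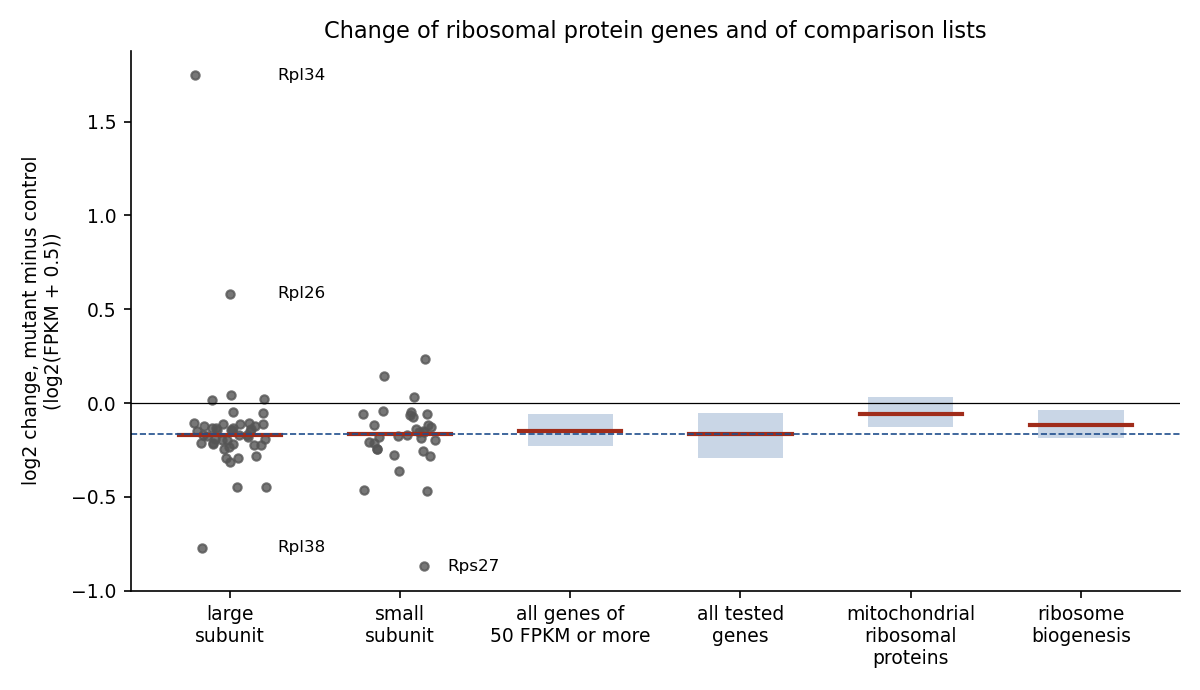
Log2 change from control to mutant on the log2(FPKM + 0.5) scale. Points are single ribosomal protein genes with their median in red; for the other lists the bar spans the middle 50% of genes around a red median, and the dashed line is the median of all tested genes at -0.17, on which both subunits centre.

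The 2 subunits did not separate. The median log2 change was -0.17 over 47 tested genes of the large subunit and -0.16 over 32 of the small subunit. Their difference of -0.0061 was within its spread over the pairs of libraries (SD 0.0392). Of the large-subunit genes 42 were below 0, and of the small-subunit genes 29 were, where 82.6% of all tested genes were.

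The stalk of the large subunit is formed by Rplp0, which anchors to ribosomal RNA, and by Rplp1 and Rplp2. Rplp0 stood at 897, 813, 730 and 829 FPKM, with mutant 2 above control 2. Rplp2 was at 337, 300, 262 and 258 FPKM, both mutants below both controls, a log2 change of -0.29 (SE 0.16, adjusted p = 0.825 by limma).

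Rpl5 and Rpl11, which bind the 5S ribosomal RNA and, outside the ribosome, the p53 regulator Mdm2, were at 166, 157, 136 and 148 FPKM and at 252, 223, 216 and 217 FPKM. In both genes both mutants lay below both controls, with log2 changes of -0.19 and -0.13 (adjusted p of limma 0.825 and 0.834). The 22 p53 response genes had a median of -0.18, and 0 passed. Those with the smallest p were Btg2, an antiproliferative gene, at -0.52, and Sesn2, a stress sensor, at -0.54 (unadjusted p 0.0209 and 0.0318 by limma).

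Some ribosomal proteins are known for effects on particular messages or for disease. Rps19, mutated in Diamond-Blackfan anaemia, was at 233, 191, 196 and 195 FPKM, with control 1 high and the other 3 libraries alike. Rps25, needed by several viral internal ribosome entry sites, was at 239, 208, 188 and 215 FPKM. Rpl10a, studied in ribosomes specialised for subsets of messages, was at 369, 321, 304 and 322 FPKM. In Rps25 and Rpl10a, mutant 2 lay above control 2.

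Rps6, the target of S6 kinases, was at 292, 270, 256 and 281 FPKM, and the groups overlapped. Rpsa, which is also known as a laminin receptor, was at 315, 274, 239 and 281 FPKM, with mutant 2 between the controls. Rps27a, made as a fusion with ubiquitin, was at 109, 91.4, 82.2 and 82.2 FPKM. Its log2 change was -0.28 (SE 0.18, adjusted p = 0.825 by limma), with both mutants below both controls.

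Rpl22 was at 104, 92.8, 87.3 and 90.2 FPKM. Its paralog Rpl22l1, outside the naming rule, was at 157, 130, 118 and 135 FPKM. Neither passed the test.

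Paralogs within the rule differed widely in level. Rpl36al, a copy of Rpl36a, was the more abundant of the pair at 615, 517, 527 and 564 FPKM, with overlapping groups. Rpl36a was at 77.6, 109, 71.1 and 63.7 FPKM, and both mutants lay below both controls. Its log2 change of -0.45 (SE 0.21, adjusted p = 0.825 by limma) was -0.20 without control 2, the highest library. In Rpl36a 93.4% of the 50-base stretches stood elsewhere in the genome, so its split from copies is uncertain.

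Rps27l, a paralog of Rps27 that p53 induces, was at 373, 358, 314 and 392 FPKM, mutant 2 being highest and mutant 1 lowest. Rps4x, the X-linked form of Rps4, was at 665, 633, 510 and 588 FPKM, with both mutants below both controls and a log2 change of -0.24 (SE 0.16). Rpl39 was at 705, 576, 605 and 573 FPKM and Rpl10 at 153, 147, 122 and 137 FPKM.

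The 3 members under the filter are paralogs known from other tissues. Rpl10l, a testis paralog of Rpl10, was listed at 0, 0.0723, 0.176 and 0 FPKM. Rpl39l, also known from testis, was listed at 0, 0, 0.240 and 0 FPKM. Rpl3l, a muscle paralog of Rpl3, was listed at 0.257, 0, 0.492 and 0.414 FPKM. The widths of the deposited intervals correspond to about 1 fragment for the Rpl10l and Rpl39l values above 0, so no difference was detectable at this depth. Summed testis markers were at 0.350, 0, 0.486 and 0.339 FPKM and skeletal muscle markers at 20.7, 27.4, 12.3 and 17.7 FPKM.

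Rpl38, which in the mouse embryo is known for its part in translating Hox messages, had the smallest p of all members by limma. It was at 360, 349, 207 and 208 FPKM, so the libraries of each group were nearly equal and both mutants lay well below both controls. The log2 change was -0.77 (SE 0.16, 95% interval -1.13 to -0.41), with an unadjusted p of 0.00114 and an adjusted p of 0.447 by limma. In the authors' deposited table the mean normalized count of Rpl38 was 340 in controls and 219 in mutants. Its unadjusted p by DESeq was 0.0568 and its adjusted p was 1. Other members, Rps16 among them, had a smaller unadjusted p there.

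The isoform files split Rpl38 into 3 transcripts. The isoform of 352 bases was at 142, 153, 137 and 136 FPKM and that of 369 bases at 92.5, 76.4, 70.9 and 71.4 FPKM. The isoform of 285 bases, to which the authors' files give the status LOWDATA in every library, was at 125 and 119 FPKM in the controls and under 0.01 FPKM in both mutants. Most of the difference at the gene level therefore sat in this isoform. With isoforms of that status left out, the log2 change of Rpl38 was -0.16, against -0.17 for all genes.

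**Figure D3:**
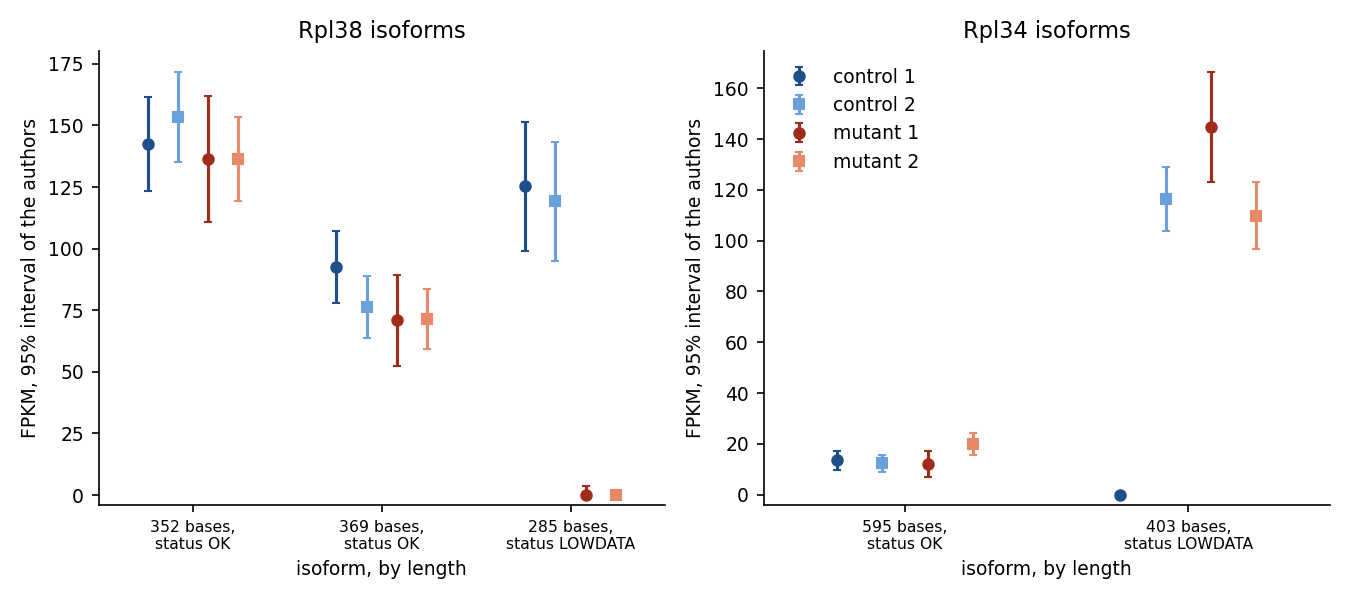
FPKM of each isoform of Rpl38 (left) and Rpl34 (right) in the 4 libraries, with the deposited 95% intervals, which cover counting error only. The short isoforms of status LOWDATA switch between about 0 and over 100 FPKM, while the other isoforms are at like levels in all 4 libraries, apart from a higher Rpl34 value in mutant 2.

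Rpl34, a protein of the large subunit, had the most positive change. It was at 13.6, 129, 157 and 130 FPKM, so control 1 stood far below the other libraries and control 2 matched mutant 2. The log2 change was 1.75 (SE 0.81, adjusted p = 0.825 by limma) with all libraries and 0.15 without control 1. Its isoform of 595 bases was at 13.5, 12.4, 12.1 and 19.9 FPKM. The isoform of 403 bases, again of status LOWDATA, was at 0.00591, 117, 145 and 110 FPKM. With such isoforms left out the log2 change was 0.26.

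Rps29 and Rps28 are small proteins of the small subunit. Rps29 was at 59.8, 55.3, 37.3 and 46.1 FPKM, with both mutants below both controls and a log2 change of -0.46 (SE 0.19, unadjusted p 0.0371, adjusted p = 0.825 by limma). It was -0.31 without mutant 1, the library of lowest depth, whose value corresponds to 47.0 fragments. Rps28 was at 603, 575, 336 and 538 FPKM, and its log2 change of -0.47 became -0.13 without mutant 1.

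In Rps27 and in Rpl26 the change rested on 1 library. Rps27 was high in control 1 and alike in the other libraries. Its log2 change of -0.87 was 0.023 without control 1, and its values correspond to 16, 10.4, 3.17 and 8.22 fragments. Rpl26 was at 14.3, 16, 37.6 and 13.9 FPKM, high in mutant 1 only, and its log2 change of 0.58 was -0.12 without that library. In the authors' deposited table Rpl26 is listed at 0 counts in both groups.

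Rps2, which lies near the messenger RNA entry channel, and Rps18, in the head of the small subunit, were both high in mutant 2. Rps2 was at 288, 254, 233 and 384 FPKM and Rps18 at 320, 274, 254 and 477 FPKM. In both genes mutant 1 was the lowest library and mutant 2 the highest. Their log2 changes were 0.15 and 0.23 with all libraries and -0.21 and -0.22 without mutant 2. The values in mutant 2 correspond to 4707 and 2325 fragments. In the authors' deposited table the mean normalized counts were also higher in mutants, at 880 against 624 for Rps2 and 1161 against 790 for Rps18, with an adjusted p of 1 for both.

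**Figure D4:**
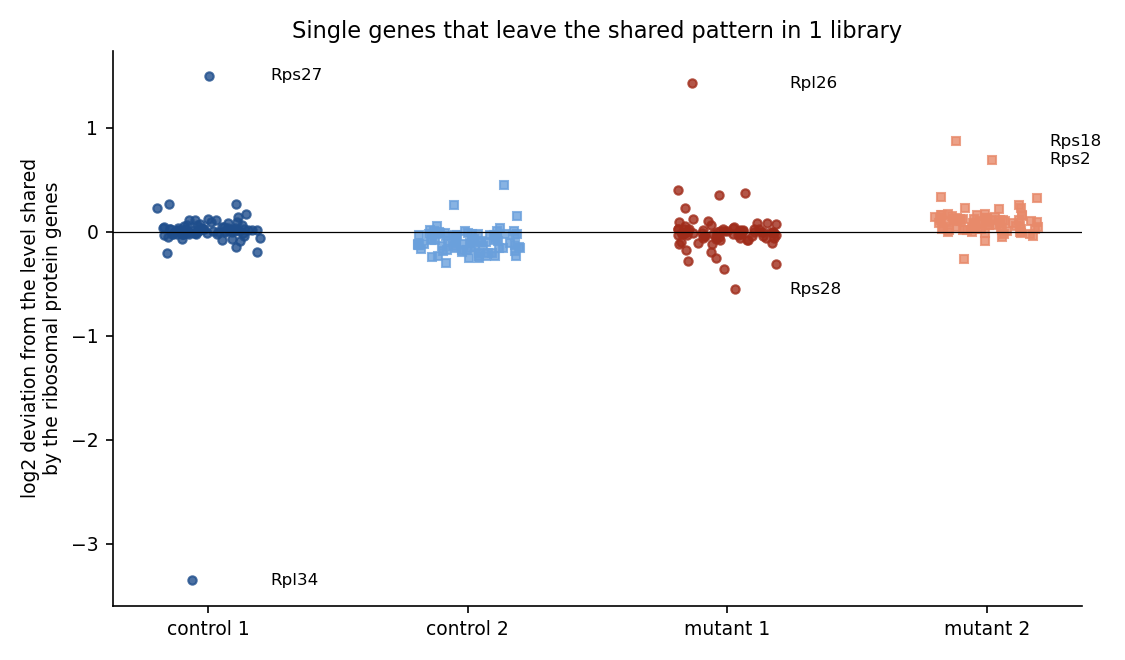
Log2 level of each of the 79 tested genes after subtraction of the library's median over these genes and of the gene's own median over libraries. Most points lie within 0.5 of 0, and the 6 named genes are those beyond 0.5 in 1 library, from -3.35 for Rpl34 in control 1 to 1.50 for Rps27 in control 1.

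After removal of the level that the members shared in each library, 6 of 79 genes deviated by more than 0.5 log2 in 1 library, a limit chosen after the values were seen. These were Rpl34 (-3.35) and Rps27 (1.50) in control 1, Rpl26 (1.43) and Rps28 (-0.56) in mutant 1, and Rps18 (0.87) and Rps2 (0.69) in mutant 2. In all 6 genes at least 50% of the 50-base stretches stood elsewhere in the genome. Of all members with a transcript, 61.7% were in that range, and the part of the copies in these values was not tested. Control 1 was also the library with high B and plasma cell markers, and mutant 1 the one of lowest depth. The part of these in the deviations was not tested.

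FPKM and deposited counts parted for many members. For genes with 1 isoform, the control mean of the authors' deposited table was divided by the control FPKM and by length in kilobases, and set to 100% at the median of 5107 genes of at least 10 FPKM, of which the middle 50% ran from 92.0% to 104%. The median of 70 members was 28.9%. Over members with under 10% of stretches elsewhere it was 89.3% (6 genes), over those from 10% to under 50% it was 50.7% (21 genes), and over those with at least 50% it was 21.7% (43 genes). Members are short, with a median transcript of 706.5 bases against 2161 bases over all genes. The yield used the full annotated length, and the part of transcript length in it was not tested.

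In the 6 genes with under 10% of stretches elsewhere the yield ran from 49.7% to 102%. Rps3 of the small subunit had 3.61% of its stretches elsewhere and a yield of 97.1%, Rpl22 had 5.64% and 99.0%, and Rps15a had 6.09% and 102%. Rpl8 had 8.53% and 81.4%, and Rps20 had 9.27% and 49.7%. Rpl3, a core protein of the large subunit, had 90.8% elsewhere and a yield of 1.98%, and Rpl23a had 95.4% and 0.988%. Across the 70 genes, Spearman's rho between share and yield was -0.62, a description over genes that share libraries and are not independent replicates.

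The relation was loose. Rps4x had a yield of 62.5% at a share of 91.4%, and Rpl5 had 1.66% at 46.0%. In all, 19 members had a yield under 10%. Overlap with a hosted RNA gene, which also occurs in these genes, was annotated in 31 members and in 6.13% of tested genes, and its part was not tested. Levels of members with many copies are uncertain in either unit. The part of the copies and that of transcript length in the gap between the units were not tested. The 6 tested members with under 10% of their stretches elsewhere had a median log2 change of -0.16, and 0 passed. All were below 0, where 82.6% of all tested genes were. Rps20 and Rps15a are among them, though 100% and 75.2% of their junction stretches stood elsewhere in the genome.

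**Figure D5:**
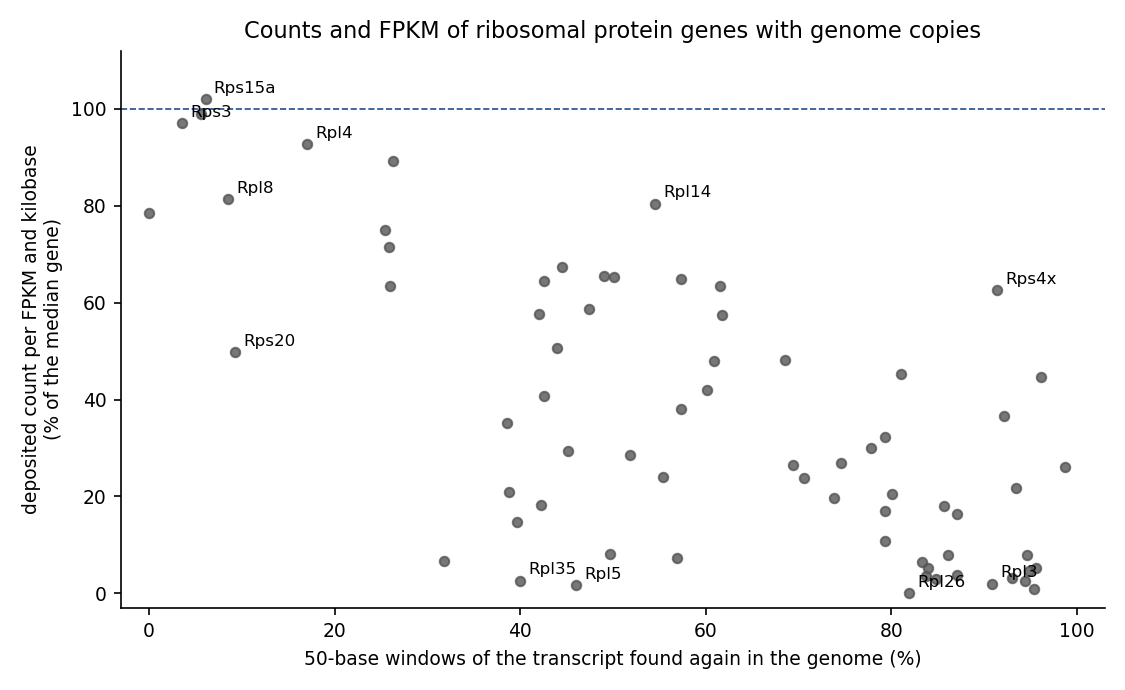
Share of 50-base transcript stretches found again in the genome (x axis, %) against the deposited control count per FPKM and kilobase, as a percentage of the median gene (y axis), for 70 ribosomal protein genes with 1 isoform. The dashed line is the median of 5107 genes. Some genes with a low share, such as Rps3, lie near it, and most genes on the right lie far under it. Rps20, whose share is from a longer transcript than its FPKM, lies lower than Rps3.

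Promoter sequences are shown because a pyrimidine run at the RNA start is the feature these messages are known for. RefSeq promoters of GRCm38.p6 were matched by symbol for 61 of the 82 genes, with 73 promoters. Each line below is the 30 bases around the annotated start, 15 before it and 15 from it on, on the strand of the gene. Capitals mark the longest run in the window of a C followed by at least 4 more pyrimidines, and shorter runs of this kind stay in lower case.
Rpl38, chr11:114668565-114668594, plus strand: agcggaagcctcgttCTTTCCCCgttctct
Rplp2, chr7:141447636-141447665, plus strand: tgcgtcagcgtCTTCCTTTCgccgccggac
Rps6, chr4:86857353-86857382, minus strand: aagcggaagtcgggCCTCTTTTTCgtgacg
Rps18, chr17:33955651-33955680, minus strand: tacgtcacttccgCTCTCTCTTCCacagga
Rps27, chr3:90213634-90213663, minus strand: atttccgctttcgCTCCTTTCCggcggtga
Rps9, chr7:3704026-3704055, plus strand: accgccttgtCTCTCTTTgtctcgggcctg
Rpl34, chr3:130730323-130730352, minus strand: CCTTCCTTTTCCTCTTCCggggacggtgct
Rpl41, chr10:128549154-128549183, minus strand: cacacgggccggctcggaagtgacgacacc

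The run began at the annotated start itself in Rpl38 and just before it in Rps6, Rps18 and Rps27. The Rpl41 window holds no such run. Runs of this kind were present anywhere in the window in 41 of the 61 genes and in 58.9% of their promoters. They were in 36.4% of all 32851 promoters in the table. Of the 73 member promoters, 43 held such a run, and in 17 the run covered the annotated start. Runs of a C and at least 7 more pyrimidines, a limit added after the data were seen, were also counted anywhere in the window. They were present in 25 genes and in 35.6% of their promoters, against 9.26% of all.

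Over the whole window of 250 bases before to 50 after the start, on both strands, CCGGAAG, the core bound by ETS family factors, was present in 25 of the 61 genes. It was in 35.6% of member promoters and 8.86% of all. AAGATGGC, the element of YY1, was in 9.59% of member promoters and 2.75% of all. TATAAA, the TATA box, was in 8.22% of member promoters and 13.6% of all. These letters describe the windows and are not evidence of binding.

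The other genes of the translation machinery were read from the same fit, and 0 passed in any of these lists. For the lists below, the background is 82.6% of all tested genes with a log2 change below 0, and a median of -0.17. The 5 measured ribosome components outside the naming rule had a median log2 change of -0.17, all below 0. Fau, which encodes a small-subunit protein fused to a ubiquitin-like domain, was at 421, 386, 348 and 348 FPKM. Gnb2l1, the scaffold protein RACK1, was at 1047, 984, 887 and 917 FPKM. Both had both mutants below both controls.

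The 12 elongation factors had a median of -0.18, with 11 below 0. Eef2, which moves the ribosome along the message, was at 818, 798, 573 and 639 FPKM, a log2 change of -0.42 (unadjusted p 0.0306, adjusted p = 0.825 by limma). Eef1a2 was at 3.72, 3.68, 1.40 and 2.45 FPKM (-0.83, unadjusted p 0.0161 by limma). In both genes both mutants lay below both controls.

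The 39 initiation factors had a median of -0.16, with 36 below 0. Pabpc1, the poly(A)-binding protein, was at 323, 270, 191 and 220 FPKM (-0.52, unadjusted p 0.0181, adjusted p = 0.825 by limma), and both mutants lay below both controls. Eif4b, a helper of the cap-binding helicase, had a log2 change of -0.35 (unadjusted p 0.0862 by limma).

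Of the genes that govern ribosome production, 82 biogenesis factors had a median of -0.12, and 14 genes of RNA polymerase I and its factors had -0.21. Nob1, an endonuclease that matures the small-subunit RNA, was at 19, 15.2, 9.35 and 15.2 FPKM, low in mutant 1. Taf1b, of the polymerase I selectivity factor, was at 6.48, 5.84, 4.74 and 4.09 FPKM. The 24 tested genes listed for mTORC1 and the control of terminal oligopyrimidine messages had a median of -0.14. Of these, 2 had an unadjusted p under 0.05 by limma, where 4.12% of all tested genes were lower at that limit. They were Mxd4 (-0.50), which is not itself a part of mTORC1, and the S6 kinase gene Rps6kb2 (-0.53).

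The 76 mitochondrial ribosomal proteins, which serve the separate ribosome of that organelle, had a median of -0.06, with 52 below 0. The 37 tested proteasome subunits, another large complex, had -0.10, with 35 below 0. The difference between these lists and the cytosolic ribosomal proteins was not tested.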

How the data were processed

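RNA-seq of 4 colon libraries (2 control, 2 mutant) was used. Per the submitters' processing notes, the authors used bcl2fastq 1.8.4, TopHat, Cufflinks and DESeq with the mouse build mm9; read length is not given in the sources used here. Per the file headers, the authors deposited FPKM with 95% intervals and a status per gene and isoform, and a coverage signal per isoform. The authors' deposited table holds mean normalized counts of each group (a signal), the fold as a ratio and as log2, and a p-value with its adjusted form. No per-library counts were used, so no count model was fitted. Rows of a status other than OK were left out, rows sharing a symbol were summed, and limma 3.58.1 (R 4.3.3) was run on log2(FPKM + 0.5) of all genes averaging 0.5 FPKM or more (variance trend, two-sided, Benjamini-Hochberg at 0.05). Depth was taken from the ratio of coverage to FPKM, and fragments from interval widths; both cover counting error only.

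Transcripts of GENCODE vM1 were cut into stretches of 50 bases and looked up in mm9, on both strands; junction stretches had to reach at least 8 bases past the junction, a limit set after a first look at the output. The bins of 10% and 50% were also chosen after the values were seen. The members and lists were chosen with earlier results of these data known. The text names the 10 highest members, the 5 most positive and 5 most negative changes, members of known special roles, paralogs with their relatives, members under the filter, and the 2 genes of smallest p of other lists that it describes; some genes that this rule names are not reported here. The fit was tested on simulated data. Alternatives covered the pseudocount, filter, scaling, variance model, status, rows, isoform sums, small RNA genes, a replicate block, each library left out, and the authors' deposited table. Same-numbered libraries did not deviate together (r = -0.0022 over all genes, -0.14 over members).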

Additional observations from a re-analysis of the deposited data

How the results depend on the processing

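The count of members past the threshold stayed at 0 in limma except with the replicate block, where it was 2 (Rpl34 and Rpl38, adjusted p 2.52e-11 and 0.0196), and with libraries left out (0 to 2; the 2 without control 2 were Rpl34 and Rps27, where control 1 alone stands for its group and is assumed to vary like the mutants). The count over all genes was 9, and 2 with no filter, 14 from 5 FPKM, 3 with median ratios, 2 with quantile normalization, 195 with the replicate block, 0 without small RNA and histone genes, and 8 to 356 with a library left out. The labels do not say that equal numbers share an animal or batch. The members' median log2 change of -0.17 was 0.016 with median ratios and -0.0100 in the authors' deposited table, and -0.24 to -0.09 with a library left out; the ratio of sums was 1.03 with median ratios. Small negative changes turned positive with median ratios (Rplp1 0.072, Rpl8 0.014, Rpl32 0.13, Rps9 0.032, Rplp0 0.053, Rpsa 0.0024, Rps6 0.12, Rpl11 0.052, Rpl10a 0.047, Rps25 0.037, Rps19 0.071, Rpl22 0.036, Rpl36al 0.14, Rps27l 0.13, Rpl39 0.072), with quantile normalization (Rpl32 0.040, Rps6 0.067, Rps19 0.019, Rpl36al 0.081, Rps27l 0.064, Rpl39 0.015) and without small RNA and histone genes (Rplp1 0.0056, Rpl32 0.067, Rps6 0.056, Rps19 0.0048, Rpl36al 0.071, Rps27l 0.062, Rpl39 0.0061); these settings shift all genes upward, the median of all genes being 0.0056 with median ratios. With each library left out, signs also turned in Rplp1 (-0.25 to 0.020), Rps21 (-0.38 to 0.0066), Rps27 (-1.76 to 0.023), Rps19 (-0.26 to 0.028), Rpl36al (-0.17 to 0.076), Rpl39 (-0.26 to 0.031), Rpl41 (-0.12 to 0.21), Rps14 (-0.13 to 0.20), Rpl26 (-0.12 to 1.29), Rps6 (-0.13 to 0.0031), Rps27l (-0.22 to 0.10), Rps18 (-0.22 to 0.69) and Rps2 (-0.21 to 0.51). The cause was not tested.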
